A study of Homo sapiens with 8 samples.

Results

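The mitochondrial ribosomal proteins were examined by ribosome profiling in 293T cells, a transformed line of human embryonic kidney origin. Members were the genes whose symbol starts with MRPL or MRPS, followed by a number and at most 1 letter, which gave 77 of the 17179 gene symbols in the data. By symbol, 48 belonged to the large subunit (MRPL) and 29 to the small subunit (MRPS). All 77 passed the filter on low counts, which left 13306 genes. MRPL45 was not analysed here. The lowest count of any member in any library was 101, and mean counts over the 8 libraries ran from 202 for MRPL34 to 4585 for MRPL28, with a median of 884.

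The mitoribosome makes the few proteins encoded by mitochondrial DNA, all of them core subunits of the respiratory chain and ATP synthase. Its RNAs come from mitochondrial DNA, whereas its proteins are encoded in the nucleus, translated on cytosolic ribosomes and imported, so footprints on MRPL and MRPS messages report cytosolic translation. Many members descend from bacterial ribosomal proteins, and others exist only in mitochondrial ribosomes. Symbol and position do not always coincide: MRPS18A and MRPS30 sit in the large subunit, and MRPS36, which RefSeq lists as KGD4, is a subunit of the 2-oxoglutarate dehydrogenase complex of the citrate cycle.

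The libraries fell into 4 groups with 2 libraries each. Cells with shNBD1, a short hairpin RNA of the non-cleaving kind, were compared with cells given a control for shRNA, and cells given miRNA inhibitors with cells given the inhibitors' negative control (the inhibitor control). All were grown in high-glucose DMEM with serum and antibiotics and lysed with cycloheximide, which holds cytosolic ribosomes on mRNA. The labels state neither the dose nor the duration of any treatment, nor whether replicates were separate cultures, so the p-values reflect variation among libraries that could be purely technical. Total counts ranged from 11218980 to 19854218 per library. The epithelial and mesenchymal genes usually found in this line were abundant (KRT8 at 978 to 1640 CPM and VIM at 3063 to 6172 CPM, where CPM are counts scaled to the size of each library), while the neurofilament gene NEFM was at 0.924 to 1.66 CPM, the kidney gene PAX2 at 1.89 to 3.44 CPM and LIN28B at 6.71 to 19.9 CPM. Of 10 markers of other cell types, CD3E (T-cell), PTPRC (leukocyte), ALB (hepatocyte), HBB (erythroid) and MYH6 (cardiac) were at 0 to 0.306 CPM. PECAM1, GFAP and COL3A1 were at 0.46 to 4.34 CPM, and CD68 was at 10.6 to 38.5 CPM. ACTA1, a member of the actin family, was at 602 to 1153 CPM. The sources used here do not say how reads shared among actin genes were assigned. With no matched RNA libraries used here, mRNA level and translation cannot be told apart, nor can fewer cells and fewer footprints per cell.

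Many nuclear genes of mitochondria carry ETS, NRF1 or YY1 motifs near their start sites, and the promoters of the members were searched for these and for the MYC E-box. RefSeq (GRCh38.p14) windows of 250 bases before to 50 after a start site were found for 69 members, 11 of them with several, 85 windows in all. On either strand, the ETS motif CCGGAAG was found in 33 of these windows (38.8%), against 10.3% of all promoters in the table and 16.1% of those of the genes tested. The YY1 motif AAGATGGCG was in 15.3% of member windows, against 1.75% of all promoters and 3.25% of those of the genes tested. The NRF1 core GCGCATGC was in 7.06%, against 3.05% and 4.53%, and the E-box CACGTG in 10.6%, against 7.26% and 9.18%, so that the E-box share was close to that of the genes tested. The ETS and YY1 motifs can share the bases AAG, and of the 4 member windows that held both, 0 had them fused in that way. The 250 bases before the start are shown for 3 of the 5 members that were lower with shNBD1 and for MRPL53, the member with the smallest p-value between the controls. Capitals mark an ETS motif, which MRPL40, MRPS31 and MRPL53 hold, whereas none of the 4 motifs is in the MRPS35 window. Of the lower members not shown, MRPL39 also had none of the 4 motifs, and MRPS36 had the E-box but no ETS motif. These matches describe letters, not factor binding.
MRPL40, chr22:19432295-19432544, plus strand: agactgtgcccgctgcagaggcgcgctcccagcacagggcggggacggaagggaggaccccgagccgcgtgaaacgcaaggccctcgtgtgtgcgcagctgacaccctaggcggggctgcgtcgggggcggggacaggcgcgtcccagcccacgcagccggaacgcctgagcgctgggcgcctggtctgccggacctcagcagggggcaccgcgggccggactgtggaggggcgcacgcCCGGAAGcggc
MRPS31, chr13:40771191-40771440, minus strand: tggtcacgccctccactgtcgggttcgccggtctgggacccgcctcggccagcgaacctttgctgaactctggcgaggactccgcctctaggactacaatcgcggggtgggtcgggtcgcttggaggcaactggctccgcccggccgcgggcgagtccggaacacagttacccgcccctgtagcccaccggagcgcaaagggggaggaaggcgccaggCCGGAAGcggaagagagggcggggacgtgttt
MRPS35, chr12:27710582-27710831, plus strand: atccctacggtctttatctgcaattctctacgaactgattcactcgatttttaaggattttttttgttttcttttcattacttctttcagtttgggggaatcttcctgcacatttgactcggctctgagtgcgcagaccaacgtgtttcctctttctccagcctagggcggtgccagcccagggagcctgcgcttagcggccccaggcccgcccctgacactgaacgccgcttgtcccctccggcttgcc
MRPL53, chr2:74472681-74472930, minus strand: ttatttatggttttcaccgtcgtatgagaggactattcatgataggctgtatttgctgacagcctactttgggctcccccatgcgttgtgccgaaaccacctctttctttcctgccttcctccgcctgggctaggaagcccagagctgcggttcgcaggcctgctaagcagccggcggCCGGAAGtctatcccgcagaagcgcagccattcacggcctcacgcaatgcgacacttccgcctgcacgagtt

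The summed footprints of the members lay close together in the 4 groups. Their CPM values summed to 4968 and 5063 with shNBD1, against 5096 and 5118 in the shRNA control. The sums were 5003 and 5579 with the inhibitors, against 4689 and 5214 in the inhibitor control. Both shNBD1 libraries were below both of their controls by a small margin, while the inhibitor groups overlapped. With 2 libraries per group, a two-sided exact permutation test cannot give a p below 0.333, and no other test was applied to these sums. In raw terms the members took 0.481% to 0.526% of all counts. Inhibitors replicate 2 had the highest sum, the smallest TMM factor (0.943) and the largest share of its counts in the pair of features ZNF354B and ST8SIA1 (11.3%, against 5.99% to 9.99% in the other libraries), and the part of these differences in its sum was not tested.

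The large subunit held about the same part of the module everywhere. Its members by symbol took 67.0% and 66.1% of the module's CPM with shNBD1, against 65.4% and 66.1% in the shRNA control. They took 65.2% and 65.0% with the inhibitors, against 65.9% in both libraries of the inhibitor control. The shNBD1 and shRNA control shares overlapped, while both inhibitor shares were below both of their controls, by 0.859 percentage points on average (two-sided exact permutation p = 0.333, the smallest possible). Placing the members by position in the ribosome, with MRPS18A and MRPS30 in the large subunit and MRPS36 left out, raised the mean share to 69.3% with shNBD1, 68.9% in the shRNA control, 68.0% with the inhibitors and 68.7% in the inhibitor control.

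**Figure D1:**
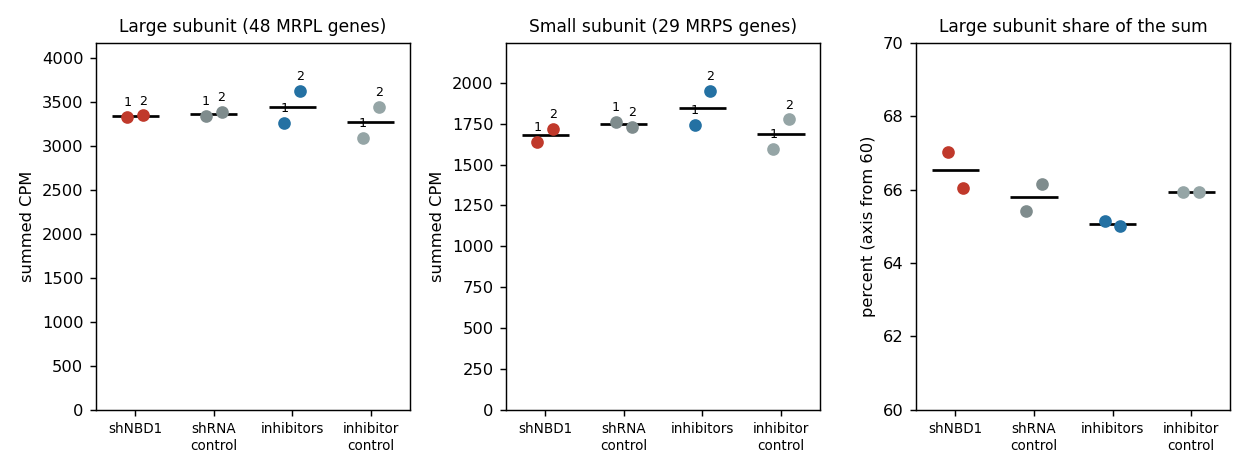
Summed CPM of the 48 MRPL genes (left) and the 29 MRPS genes (middle), and the large subunit's percent of their sum (right, axis from 60), in each library of the 4 groups. Points are libraries, marked by replicate number in the sums, and bars are group means; summed over both panels, inhibitors replicate 2 stands highest at 5579 CPM and inhibitor control replicate 1 lowest at 4689 CPM.

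With shNBD1, 1 member rose and 5 fell at an adjusted p under 0.05 in edgeR's quasi-likelihood test, 7.79% of the members, against 18.3% of all genes tested (9.18% higher and 9.15% lower). The median log2 fold change was -0.04 over the members, -0.02 over the large and -0.08 over the small subunit, against 0.00 over all genes tested. The fold changes of members were also less spread, with an SD over genes of 0.182, against 0.357 over the 10909 genes averaging 50 counts or more. Members averaged 202 counts or more, so that set was not matched to them in depth. Both shNBD1 libraries were above both controls for 15 members (19.5%, against 34.7% of all genes) and below both for 33 (42.9%, against 34.3%).

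Among the large subunit proteins, MRPL39, a mitochondria-specific protein related in sequence to threonyl-tRNA synthetase (chromosome 21, 25585656 to 25607859), fell most among the members past the threshold. It stood at 47.7 and 51.9 CPM with shNBD1, against 65.1 and 75.1 CPM in the shRNA control. The groups did not overlap, and the log2 fold change was -0.49 ± 0.09 (SE; adjusted p = 0.00482). MRPL40, a mitochondria-specific protein of the large subunit whose gene lies in the chromosome 22 region lost in DiGeorge syndrome (19432545 to 19436075), stood at 94.7 and 91.2 CPM with shNBD1, against 108 and 113 CPM in the shRNA control. It fell by 0.25 ± 0.07 on the log2 scale (adjusted p = 0.0298), again with no overlap. MRPL14, which has a bacterial homologue and binds the assembly factor MALSU1 (chromosome 6, 44113451 to 44127452), was the 1 member that rose. It stood at 76.0 and 80.6 CPM with shNBD1, against 60.6 and 65.6 CPM in the shRNA control (log2 fold change 0.31 ± 0.08, adjusted p = 0.0213).

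In the small subunit, MRPS35 (chromosome 12, 27710832 to 27756295) and MRPS31 (chromosome 13, 40729128 to 40771190), both without a bacterial counterpart, were lower. MRPS35 stood at 69.0 and 66.6 CPM with shNBD1, against 90.8 and 86.8 CPM in the shRNA control (log2 fold change -0.39 ± 0.08, adjusted p = 0.00694). MRPS31 stood at 40.5 and 41.9 CPM with shNBD1, against 48.5 and 55.3 CPM in the shRNA control (-0.33 ± 0.09, adjusted p = 0.0254). Neither gene's groups overlapped. MRPS36, the dehydrogenase subunit, stood at 30.2 and 32.2 CPM with shNBD1, against 39.2 and 38.1 CPM in the shRNA control, and fell by 0.31 ± 0.09 (adjusted p = 0.0315), so that 5 of the 6 members called are ribosomal.

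Sorted by descent, with MRPS18A and MRPS18B counted as mitochondria-specific by their place in the ribosome, the changed members were 0 higher and 2 lower of 20 mitochondria-specific members of the large subunit and 0 higher and 2 lower of 10 of the small subunit, against 9.15% of all genes lower. Among members with a bacterial homologue, 1 of 30 in the large subunit rose and 0 of 16 in the small subunit changed. Over all genes, 9.18% were higher and 9.15% lower. No test of the contrast between these classes was made. Next in p among higher values were MRPS26 at 0.22 ± 0.08 (adjusted p = 0.0702) and MRPL12, the stalk protein that recruits translation factors, at 0.31 ± 0.13 (adjusted p = 0.125), neither past the threshold. The highest fold change of all belonged to MRPS24, at 0.54 ± 0.26 (adjusted p = 0.168), chosen after its values were seen. It stood at 59.2 and 97.0 CPM with shNBD1, against 53.7 and 53.9 CPM in the shRNA control, and it shares its locus with a read-through gene, URGCP-MRPS24, so reads could be split between them.

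The calls rested on all 4 libraries of the comparison. Without shRNA control replicate 2 or shNBD1 replicate 1, MRPL39 had adjusted p-values of 0.0719 and 0.0571, and without shRNA control replicate 1 or shNBD1 replicate 2, MRPS35 had 0.0994 and 0.0885. Each of these 4 settings left 0 members higher and 1 lower (1.3%), where 1.96% to 3.57% of all genes were lower. DESeq2 kept 3 of the 6 calls, losing MRPS31 (adjusted p = 0.0583), MRPL40 (0.0733) and MRPS36 (0.104). A fit of the 4 libraries alone kept all 6 and called 8 higher and 18 lower, in a setting where 21.5% and 20.4% of all genes were called.

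**Figure D2:**
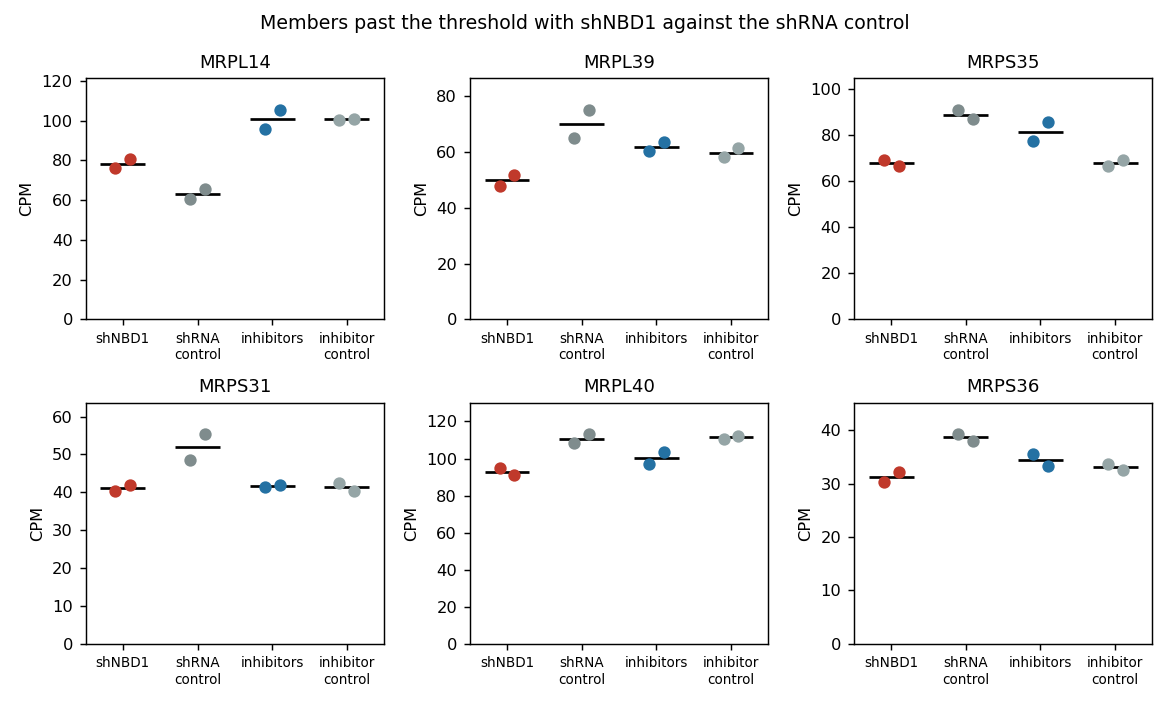
CPM of the 6 members past the threshold with shNBD1 against the shRNA control, in each library of the 4 groups (points) with the group mean (bar), on axes that start at 0. MRPL14 is higher with shNBD1 and the other 5 are lower, and MRPS35 is higher in both inhibitor libraries (77.1 and 85.8 CPM) than in both of their controls (66.7 and 69.2 CPM).

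With the miRNA inhibitors, 0 of 77 members passed the threshold in edgeR's quasi-likelihood test, against 0.12% of all genes tested (0.0376% higher and 0.0827% lower), and DESeq2 also called 0. At an unadjusted p under 0.05 there were 13 members, 11 higher and 2 lower (16.9%, against 16.4% of all genes, 8.49% higher and 7.91% lower). The values leaned upwards: the median log2 fold change was 0.10 over the members, 0.07 over the large and 0.12 over the small subunit, against 0.01 over all genes tested. Of the 77 values, 61 were positive, against 6858 of the 13306 genes. Both inhibitor libraries were above both controls for 22 members (28.6%, against 20.5%) and below both for 6 (7.79%, against 20.3%).

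The members of smallest p were MRPL1, whose bacterial homologue forms the stalk beside the tRNA exit site, MRPS7, whose homologue lies in the head of the small subunit, and MRPS35. MRPL1 stood at 19.7 and 20.4 CPM with the inhibitors, against 15.4 and 14.9 CPM in the inhibitor control, a log2 difference of 0.40 ± 0.11 (adjusted p = 0.142). MRPS7 stood at 112 and 121 CPM with the inhibitors, against 95.5 and 97.5 CPM in the inhibitor control (0.28 ± 0.08, adjusted p = 0.152). The difference for MRPS35 was 0.26 ± 0.08 (adjusted p = 0.161). None of these 3 overlapped between groups. On the lower side, MRPL40 had -0.15 ± 0.07 (adjusted p = 0.294), MRPL33 had -0.24 ± 0.10 (adjusted p = 0.291) and MRPS6 had -0.24 ± 0.11 (adjusted p = 0.316). MRPL40 averaged 100 CPM with the inhibitors, against 111 CPM in the inhibitor control, and the groups of none of these 3 overlapped.

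The size of the upward lean changed with the libraries used, while its median stayed above 0 whichever 1 library was left out. Its median was 0.03 without inhibitor control replicate 1, the library with the lowest sum, and 0.02 without inhibitors replicate 2, the library with the highest. Without both, an alternative chosen after seeing the data, it was -0.05, with 0 members higher and 4 lower (5.19%, against 2.02% of all genes lower in that fit). Without inhibitor control replicate 2 the median was 0.16, and without inhibitors replicate 1 it was also 0.16. The median was 0.09 without the pair of abundant features.

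**Figure D3:**
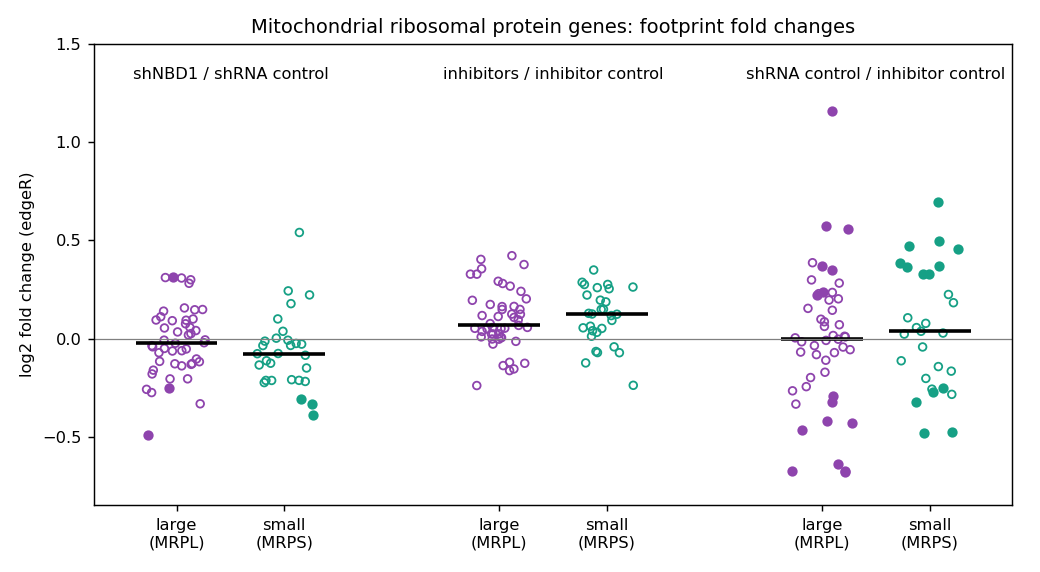
Log2 fold change of each member in the 3 comparisons (edgeR), with large subunit (48 MRPL) and small subunit (29 MRPS) genes side by side. Filled points passed the adjusted threshold, open points did not, and bars are medians; 6 points are filled with shNBD1, 0 with the inhibitors and 30 between the controls, where MRPL53 stands at 1.16.

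The treatment effects themselves were compared with an interaction term (the shNBD1 effect minus the inhibitor effect). No member was higher and 3 were lower (3.90%, against 7.44% of all genes tested, 3.48% higher and 3.96% lower), with a median of -0.12 over the members and 0.00 over all genes. The 3 were MRPS35 at -0.65 ± 0.11 (adjusted p = 0.00734), MRPL1 at -0.68 ± 0.16 (adjusted p = 0.028) and MRPL39 at -0.54 ± 0.13 (adjusted p = 0.0288). For MRPL1 the 4 libraries of the shRNA arm read 17.1 and 14.8 CPM with shNBD1, against 18.6 and 20.1 CPM in the control (-0.28 ± 0.11, adjusted p = 0.115), so that neither effect passed by itself while their difference did. MRPL39 had 60.3 and 63.7 CPM with the inhibitors, against 58.2 and 61.4 CPM in the inhibitor control, groups that overlapped. On the higher side the members of smallest p, none past the threshold, were MRPL14 at 0.32 (adjusted p = 0.107), MRPL24 at 0.30 (0.209) and MRPL33 at 0.29 (0.258).

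The difference calls also depended on single libraries. Without shRNA control replicate 1 or shNBD1 replicate 2, 0 members were lower (0.774% and 0.803% of all genes were), and without shRNA control replicate 2 or shNBD1 replicate 1, 1 was (1.3%, against 0.869% and 1.33%). MRPS35 lost its call without shRNA control replicate 1 (-0.60) or shNBD1 replicate 2 (-0.61). MRPL1 and MRPL39 lost theirs without any 1 library of the shRNA arm, with differences of -0.79 to -0.56 and -0.63 to -0.43. MRPL39 also lost its call without inhibitor control replicate 1 or inhibitors replicate 2 (-0.49 in both fits). In DESeq2, with all 8 libraries, MRPL1 did not pass (adjusted p = 0.0653). Without inhibitor control replicate 2 or inhibitors replicate 1, 6 members were lower (7.79%, against 4.06% of all genes in both fits).

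More members differed between the controls than under either treatment. Between the shRNA control and the inhibitor control, 16 members were higher and 14 lower in the shRNA control (39%, against 27.1% of all genes tested, 13.5% higher and 13.6% lower). The median was 0.01, with -0.00 over the large and 0.04 over the small subunit, so the module moved in no common direction. The SD of the members' fold changes was 0.337, against 0.399 over genes averaging 50 counts or more, a set not matched to the members in depth. The groups did not overlap for 28 members that were higher in the shRNA control (36.4%, against 33.7%) and 24 that were lower (31.2%, against 33.4%). This comparison is between controls, and the control reagent itself, the vehicle, the form of delivery and the batch of the arms cannot be told apart.

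MRPL53, a mitochondria-specific protein at the base of the large subunit stalk (chromosome 2, 74471982 to 74472680), differed most. It stood at 109 and 105 CPM in the shRNA control, against 44.3 and 51.2 CPM in the inhibitor control (log2 fold change 1.16 ± 0.10, adjusted p = 5.35e-05). The treated libraries lay near their own controls, at 89.8 and 95.3 CPM with shNBD1 and 49.2 and 58.2 CPM with the inhibitors. MRPS14, which has a bacterial homologue in the head of the small subunit, stood at 63.1 and 58.3 CPM in the shRNA control, against 36.9 and 38.2 CPM in the inhibitor control (0.69 ± 0.08, adjusted p = 0.000297). MRPL19, another protein with a bacterial homologue, stood at 99.5 and 99.3 CPM in the shRNA control, against 66.4 and 68.9 CPM in the inhibitor control (0.56 ± 0.07, adjusted p = 0.000628). These 3 kept their calls under all 18 alternatives.

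In the other direction, MRPL14 stood at 60.6 and 65.6 CPM in the shRNA control, against 100 and 101 CPM in the inhibitor control (-0.68 ± 0.08, adjusted p = 0.000279). MRPL49, a mitochondria-specific protein, stood at 32.4 and 28.2 CPM in the shRNA control, against 47.0 and 50.2 CPM in the inhibitor control (-0.68 ± 0.10, adjusted p = 0.000844). MRPL42, also mitochondria-specific, stood at 32.5 and 29.96 CPM in the shRNA control, against 44.8 and 55.0 CPM in the inhibitor control (-0.68 ± 0.11, adjusted p = 0.00157). None of these groups overlapped, and all 3 calls held under the 18 alternatives. MRPL49 shares its span with SYVN1, MRPL14 with TMEM63B, and 6 pseudogenes are named after MRPL42 in RefSeq; the sources used here do not give the assignment of reads among such loci.

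The other members of smallest p that were higher in the shRNA control were MRPS21 (0.46 ± 0.08), MRPL52 (0.57 ± 0.10), MRPS28 (0.50 ± 0.09), MRPS35 (0.39 ± 0.08), the large subunit protein MRPS30 (0.47 ± 0.10), MRPS16 (0.33), MRPS31 (0.33 ± 0.09), MRPS33 (0.37) and MRPS23 (0.37). Those lower were MRPL16 (-0.42 ± 0.07), MRPS25 (-0.48), MRPS26 (-0.33 ± 0.08), the stalk-base protein MRPL11 (-0.43), the tunnel-exit protein MRPL17 (-0.47 ± 0.13), MRPL48 (-0.32), MRPS2 (-0.48), MRPS7 (-0.27 ± 0.08) and MRPL34 (-0.64 ± 0.19). Their adjusted p-values ran from 0.00237 for MRPL16 to 0.0334 for MRPL34, the member with the fewest counts. Both subunits were split, with 7 higher and 9 lower of 48 MRPL genes and 9 higher and 5 lower of 29 MRPS genes.

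Which members were called between the controls depended on the libraries used. Without shRNA control replicate 1, 5 were higher and 5 lower (3.75% and 4.19% of all genes were), and without shRNA control replicate 2, 9 were higher and 4 lower (4.48% and 4.85%). Without inhibitor control replicate 1 there were 9 higher and 19 lower (11.3% and 12.3% of all genes), and without inhibitor control replicate 2 there were 17 higher and 6 lower (11.8% and 10.9%). Of the 24 named here, these settings kept 10, 13, 21 and 17 calls in the same order.

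**Figure D4:**
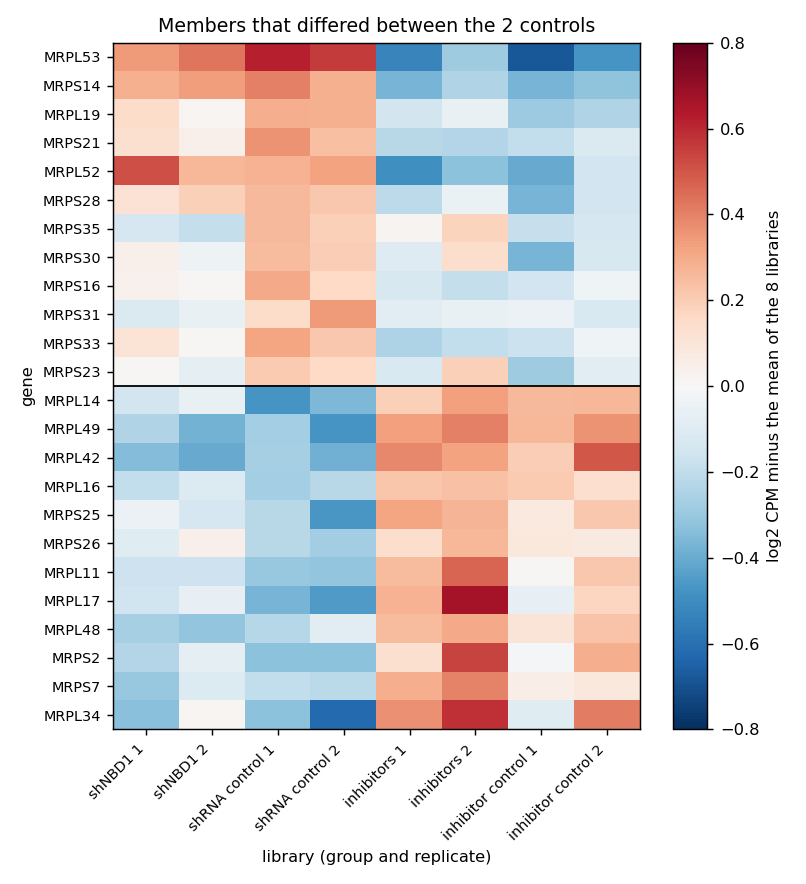
Log2 CPM minus the mean of the 8 libraries for the 12 named members higher (above the line) and the 12 lower (below it) in the shRNA control than in the inhibitor control, with libraries in columns. For MRPL53 the shRNA arm holds 89.8 to 109 CPM and the inhibitor arm 44.3 to 58.2 CPM.

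Because the shNBD1 comparison and the comparison of controls share the shRNA control libraries, their values are set side by side without a test of their relation. MRPS35 had -0.39 in the shNBD1 comparison and 0.39 between the controls, MRPS31 had -0.33 and 0.33, and MRPL14 had 0.31 and -0.68. MRPS35 stood at 67.8 ± 1.72 CPM with shNBD1, at 81.5 ± 6.10 CPM with the inhibitors, at 88.8 ± 2.88 CPM in the shRNA control and at 67.9 ± 1.74 CPM in the inhibitor control (mean ± SD, n = 2 each). MRPS31 stood at 41.2 ± 1.03, 41.7 ± 0.471, 51.9 ± 4.85 and 41.3 ± 1.45 CPM in the same order. Only the shRNA control stood apart for MRPS31, its 2 libraries being above the other 6. MRPL39, in contrast, was lowest with shNBD1, at 49.8 ± 2.97 CPM, against 70.1 ± 7.07 CPM in the shRNA control, while the inhibitor arm held 58.2 to 63.7 CPM.

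The MRPS18 paralogues descend from a bacterial small subunit protein and take different places in the ribosome. MRPS18A, in the large subunit, stood at 37.2 ± 1.99 CPM with shNBD1, 51.6 ± 3.99 CPM with the inhibitors, 40.6 ± 0.0177 CPM in the shRNA control and 48.3 ± 0.843 CPM in the inhibitor control. MRPS18C, the small subunit member with the bacterial protein's place, stood at 16.7 ± 0.119, 24.0 ± 3.89, 17.6 ± 0.827 and 21.5 ± 5.22 CPM in the same order. MRPS18B stood at 106 ± 3.41, 110 ± 15.2, 107 ± 1.87 and 105 ± 13.1 CPM, values within their spread. The data list MRPS18B as 7 features, which took 11.97% to 16.4% of its reads each, near the 14.3% of an equal split, and they were summed. RefSeq also lists 6 pseudogenes named after MRPS18C, so its values are uncertain. The same limit holds for all 40 members with such pseudogenes, among them MRPS21 with 9 and MRPS31 and MRPS35 with 3 each.

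Other genes of mitochondrial translation were set beside the members. The 5 ribosomal proteins without an MRP symbol (DAP3, AURKAIP1, CHCHD1, PTCD3 and GADD45GIP1) had 0 calls under either treatment. GADD45GIP1, of the large subunit, stood at 113 and 137 CPM with shNBD1, against 90.8 and 91.2 CPM in the shRNA control, without passing (0.46 ± 0.16, adjusted p = 0.0682). DAP3, the GTP-binding small subunit protein, was higher in the shRNA control, at 70.7 and 71.4 CPM, against 62.4 and 61.2 CPM in the inhibitor control (0.20 ± 0.07, adjusted p = 0.049), a call lost under 14 of 18 alternatives.

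Of 14 mitochondrial translation factors tested, 0 rose and 3 fell with shNBD1, where 9.15% of all genes fell. TACO1, an activator of MT-CO1 translation, stood at 59.1 and 55.7 CPM with shNBD1, against 72.0 and 70.1 CPM in the shRNA control (-0.31 ± 0.08, adjusted p = 0.0218). LRPPRC, which stabilises mitochondrial mRNAs, stood at 273 and 252 CPM with shNBD1, against 312 and 303 CPM in the shRNA control (-0.23 ± 0.07, adjusted p = 0.0393). The initiation factor MTIF3 fell by 0.38 ± 0.11 (adjusted p = 0.0424). Of 24 assembly factors, 0 rose and 3 fell, a share near that 9.15%: the rRNA methyltransferase METTL15 by 0.59 ± 0.14, MTERF3 by 0.46 ± 0.11 and the RNase YBEY by 0.43 ± 0.10 (adjusted p from 0.0139 to 0.0164). Each of these 6 calls was lost without shRNA control replicate 1, shRNA control replicate 2 or shNBD1 replicate 2, where their adjusted p-values ran from 0.0801 to 0.311. Of 15 mitochondrial aminoacyl-tRNA synthetases, 0 changed. No list had a call with the inhibitors. The smallest adjusted p-value of each list of factors was 0.176 for the elongation factor GFM1 (0.25 ± 0.08) and 0.137 for RPUSD4, a pseudouridine synthase (0.55 ± 0.15). Among the synthetases it was 0.127 for VARS2, which was lower (-0.30 ± 0.07). Among the proteins encoded by mitochondrial DNA it was 0.121 for MT-CO2 (0.30 ± 0.07), and among the ribosomal proteins without an MRP symbol 0.207 for DAP3 (0.19 ± 0.07).

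The products of the mitoribosome, the 13 proteins encoded by mitochondrial DNA, were also counted. Their messages are translated by mitochondrial ribosomes, on which cycloheximide does not act. They summed to 813 and 779 CPM with shNBD1, against 902 and 919 CPM in the shRNA control, and 0 rose and 5 fell (9.15% of all genes were lower). MT-ND2 stood at 14.2 and 14.7 CPM with shNBD1, against 24.9 and 22.4 CPM in the shRNA control, and fell by 0.71 ± 0.10 on the log2 scale (adjusted p = 0.00132). MT-ATP6 fell by 0.48 ± 0.10 (adjusted p = 0.0082) and MT-ND1 by 0.58 ± 0.14 (adjusted p = 0.0201). MT-ND2 kept its call whichever library was left out, whereas MT-ATP6 and MT-ND1 lost theirs without any 1 of the 4 libraries of the comparison (adjusted p from 0.055 to 0.181). With the inhibitors the sums were 1490 and 1445 CPM, against 1750 and 1469 CPM in the inhibitor control, and 0 of 13 passed.

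Between the controls, 12 of the 13 were lower in the shRNA control (13.6% of all genes were), with a median log2 fold change of -0.80, against 0.01 over the mitoribosomal proteins. The summed values were 902 and 919 CPM in the shRNA control, against 1750 and 1469 CPM in the inhibitor control. MT-CYB stood at 102 and 102 CPM in the shRNA control, against 366 and 262 CPM in the inhibitor control (-1.62 ± 0.13, adjusted p = 3.6e-05). MT-ND5 differed by -1.02 ± 0.09 and MT-ND4 by -1.19 ± 0.11. The factors were split (13.5% of all genes were higher and 13.6% lower), with 5 of 14 translation factors higher, among them the insertase OXA1L at 0.37 ± 0.07, LRPPRC at 0.25 ± 0.07 and GFM1 at 0.27 ± 0.08, and 1 lower, the ribosome recycling factor MRRF at -0.67 ± 0.10. Of the assembly factors 3 were higher (YBEY at 0.87 ± 0.10, MALSU1 at 0.43 ± 0.11 and MTERF3 at 0.39 ± 0.10). The pseudouridine synthase TRUB2 was the 1 lower, at -0.39 ± 0.07, and 1 of 15 synthetases, CARS2, was higher at 0.30 ± 0.07. YBEY, MTERF3 and LRPPRC also fell with shNBD1. Both comparisons use the shRNA control libraries, so the results for these genes are not independent. Of these factors YBEY and MRRF kept their calls under every alternative, while OXA1L, LRPPRC, GFM1, MALSU1, MTERF3, TRUB2 and CARS2 lost theirs without shRNA control replicate 1 (adjusted p from 0.0635 to 0.167), and all of these but OXA1L and TRUB2 also without shRNA control replicate 2.

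**Figure D5:**
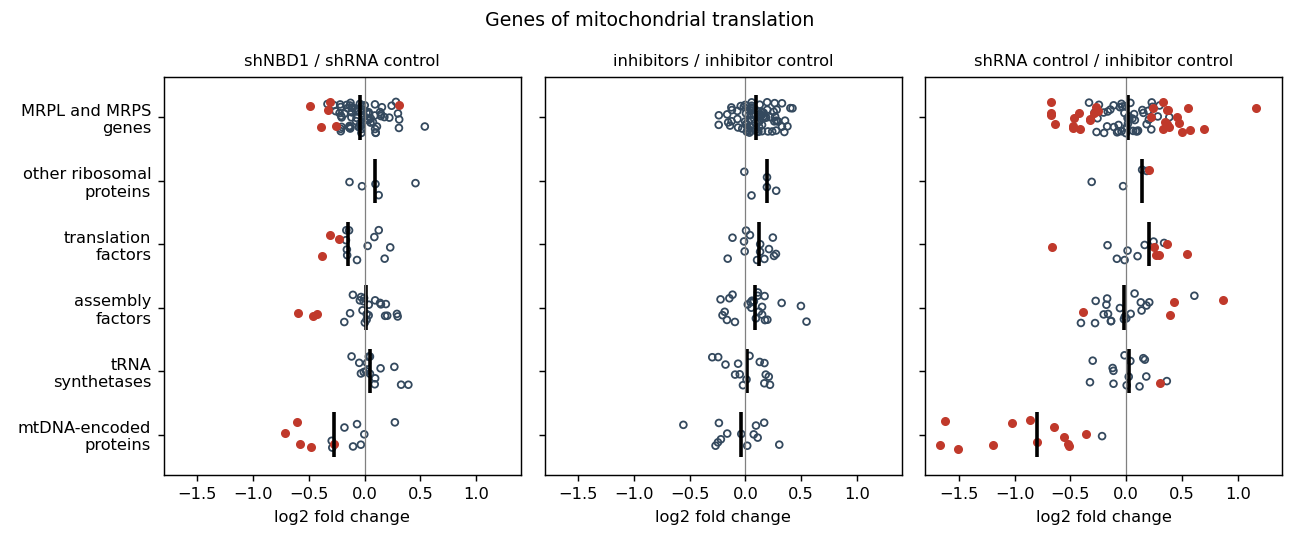
Log2 fold changes (edgeR, one point per gene, black bars at medians) of the members and of 5 other lists of mitochondrial translation genes, by comparison; red points passed the adjusted threshold and open points did not. The 13 mtDNA-encoded proteins stand at a median of -0.80 between the controls, with 12 lower, while the members stand at a median of 0.01.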

How the data were processed

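Ribosome footprints were measured in 8 libraries. The authors deposited raw, unscaled read counts for each feature, made with cutadapt and Bowtie on GRCh38, per the submitters' processing notes. Tool versions, the handling of rRNA and multiply mapping reads and the counting rule: not given in the sources used here. Features absent from a library's list were taken as 0. The 18037 features were summed to 17179 symbols, 279 with several features, and 0 columns were left unused.

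Counts were fitted with edgeR 4.0.16 (limma 3.58.1, R 4.3.3): filterByExpr (minimum count 10, minimum total 15), TMM scaling and a quasi-likelihood fit of 4 group means over all 8 libraries (4 residual degrees of freedom, common biological coefficient of variation 0.0753). Benjamini-Hochberg adjustment covered the 13306 genes, and calls were made under 0.05. CPM values use TMM-scaled library sizes, and SEs are those implied by the test. DESeq2 1.42.0, other scalings and filters, a replicate block and left-out libraries were alternatives. The steps were tested on simulated counts. Depth sets counting error only; amplification adds to it. Coordinates are from RefSeq (GRCh38.p14), in which 76 members matched by symbol and 1 by synonym; another protein-coding gene overlaps the spans of 18 members, and 40 have a pseudogene named after them.

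The members and lists were chosen with earlier results of these data known. Named members were all called members up to 12 per direction by smallest p, filled to 3 with uncalled values, and MRPS18A, MRPS18B, MRPS18C, MRPS30, MRPS36 and MRPL12; each list gave up to 3 called genes per direction or 1 value. The planned footprint density per codon needed coding lengths that were not used here, so levels are not compared between genes. Replicate pairs of 1 group differed by more than sampling noise (chi-square per degree of freedom 1.42 to 21.1).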

Additional observations from a re-analysis of the deposited data

Results flagged for a closer look

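The effect of shNBD1 differed from the effect of the inhibitors, by an interaction term in edgeR's fit, for 3 members and 4 other genes of mitochondrial translation among those named. In log2 units (shNBD1 effect minus inhibitor effect) the differences were -0.65 for MRPS35 (adjusted p = 0.00734), -0.68 for MRPL1 (0.028) and -0.54 for MRPL39 (0.0288). For the products of the mitoribosome they were -0.88 for MT-ND2 (0.00438) and -0.48 for MT-CO2 (0.0237), with MT-CO2 at 57.9 and 54.0 CPM with shNBD1 and 122 and 123 CPM with the inhibitors, against 66.2 and 60.4 CPM in the shRNA control and 96.9 and 102 CPM in the inhibitor control. For the factors they were -0.44 for LRPPRC (0.0215) and -0.41 for TACO1 (0.0475). All 7 are negative, and over all genes 3.96% were called lower and 3.48% higher. The calls were 3 of 77 members, 2 of 14 translation factors and 2 of 13 proteins encoded by mitochondrial DNA. There were 0 among the 5 ribosomal proteins without an MRP symbol, the 24 assembly factors and the 15 synthetases. The calls for MT-CO2, LRPPRC and TACO1 were lost without any 1 library of the shRNA arm (adjusted p from 0.0555 to 0.226), that for TACO1 under 11 alternatives in all, and that for MT-ND2 without shRNA control replicate 1 (0.0521). MRPL1 and MRPL39 also lost their calls without any 1 library of the shRNA arm. MRPS35 lost its call without shRNA control replicate 1 or shNBD1 replicate 2. Groups of 2 libraries are too small for a test of single outlying samples.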

How the results depend on the processing

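Named members kept the direction of their fold changes under every alternative tried: of 786 values, 693 stayed on their side of the threshold, 76 lost it, 17 gained it and 0 reversed. For the other named genes the numbers were 529, 87, 25 and 0 of 641. Counts of calls moved more, and the shares of all genes called moved too. For shNBD1 these shares were 6.46% higher and 6.29% lower in DESeq2, and 21.5% and 20.4% in the fit of the 4 libraries alone. With shNBD1 (1 member higher, 5 lower), DESeq2 left 1 and 2, and the 4 libraries alone gave 8 and 18. Leaving out 1 library of the 8 gave median log2 fold changes over the members of -0.0412 to -0.0316. For the inhibitors, leaving out 1 library gave medians of 0.0222 to 0.1649. For the difference of effects it gave medians of -0.207 to -0.0318, and between the controls medians of -0.0795 to 0.0881. Without both inhibitor control replicate 1 and inhibitors replicate 2, chosen after seeing the data, the shares of all genes called also rose. In that fit shNBD1 had 8 members higher (10.4%, against 20% of all genes) and 18 lower (23.4%, against 19.1%). The inhibitors had 0 higher (against 1.7%) and 4 lower (5.19%, against 2.02%), with a median of -0.0475. The difference had 9 higher (11.7%, against 14.2%) and 7 lower (9.09%, against 13.6%), with a median of 0.0094. Between the controls 17 were higher (22.1%, against 21%) and 26 lower (33.8%, against 21.2%). By position, the large subunit shares were 69.3% with shNBD1, 68.9% in the shRNA control, 68.0% with the inhibitors and 68.7% in the inhibitor control, which follows from where 3 members are placed. The cause of the other moves was not tested. The labels do not say that a replicate number marks a shared culture or day, and the numbers were not taken to pair the samples. Same-numbered deviations correlated over 13306 genes at 0.42 between the groups of the inhibitor arm, at 0.161 and 0.133 between shNBD1 and these groups, and at 0.002 to 0.015 between the shRNA control and the others; over the members the first 3 were 0.701, 0.46 and 0.496. Matched by number, the members' sum was higher by 314 and 365 CPM with the inhibitors than in the inhibitor control. With the replicate number as a block, members called with shNBD1 were 5 higher (6.49%, against 13% of all genes) and 6 lower (7.79%, against 12.6%). With the inhibitors they were 5 higher (6.49%, against 2.67%) and 0 lower (against 2.4%). For the difference they were 1 higher (1.3%, against 6.74%) and 7 lower (9.09%, against 7.3%). Between the controls they were 22 higher (28.6%, against 18.6%) and 17 lower (22.1%, against 17.5%). The alternatives on density per codon were not run. Mean counts were 202 or more per member, and the smallest change of a member past the threshold was 0.22 on the log2 scale.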
